A study of Mus musculus with 6 samples.

Results

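The genes of MHC class I antigen presentation were followed in mouse embryonic stem cells (mESCs) without DNA methyltransferases. The set holds 9 genes taken by name, H2-K1, H2-D1, B2m, Tap1, Tap2, Tapbp, Psmb8, Psmb9 and Nlrc5, and all 9 were found among the 53390 genes to which transcript values were summed. All 9 also passed the filter on low counts, which left 18177 genes for testing.

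Both groups were TKO mESCs, a line derived from male J1 cells that lacks functional Dnmt1, Dnmt3a and Dnmt3b, grown without feeders on gelatin. TKO-serum cells (3 libraries) were kept in DMEM with 15% FCS and 500 U/ml LIF. TKO-2i cells (3 libraries) were kept for 14 days in serum-free N2B27 with 1000 U/ml LIF, 1 µM of the MEK inhibitor PD0325901 and 3 µM of the GSK3 beta inhibitor CHIR99021. The groups thus differed in serum, basal medium, LIF dose and both inhibitors at once, and the parts these played cannot be told apart. Each library was made from poly(A) RNA with a stranded kit, and RNA abundance was read per annotated transcript. Total estimated counts were 46228700, 44180642 and 43896549 in TKO-2i replicates 1, 2 and 3 and 38274042, 51932739 and 44827609 in TKO-serum replicates 1, 2 and 3. The labels call the replicates biological but do not say that they were separate cultures, so p-values measure the spread between these libraries. No genotype with methyltransferases was analysed here.

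MHC class I molecules display peptides from inside the cell on its surface, where cytotoxic T cells and natural killer cells read them. The proteasome cuts the peptides, the TAP transporter carries them into the endoplasmic reticulum, and the peptide-loading complex fits them into a heavy chain paired with the light chain β2-microglobulin. Pluripotent stem cells are known for low surface class I, and interferon raises most genes of the pathway through IRF and STAT factors and the transactivator NLRC5.

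Transcripts of the targeted genes were read first. Dnmt1 was present at 150, 154 and 155 CPM (counts scaled to normalised library size) in TKO-2i and at 129, 130 and 129 CPM in TKO-serum. Dnmt3a was present at 7.14, 7.46 and 7.36 CPM in TKO-2i against 30.2, 29.4 and 30.7 CPM in TKO-serum. Dnmt3b was present at 19.0, 20.4 and 20.6 CPM in TKO-2i against 43.1, 42.3 and 44.0 CPM in TKO-serum. All 3 genes were thus still transcribed, and since gene sums do not separate deleted from retained exons, these values do not check the genotype.

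Of the 9 genes, 6 were lower in TKO-2i (H2-K1, Tap1, Tap2, Psmb8, Psmb9 and Nlrc5) and 2 were higher (B2m and Tapbp) at an adjusted p under 0.05 in edgeR's quasi-likelihood test, while H2-D1 did not pass. Across all 18177 genes tested, 30.6% were lower and 31.9% higher by the same rule, so that most genes tested differed between the media. The median log2 fold change (TKO-2i over TKO-serum) was -0.76 over the 9 genes and 0.01 over all genes tested. With an added requirement of a log2 fold change under -2, only Nlrc5 and Psmb8 of the 9 were lower, beside 7.1% of all genes tested. The 3 libraries of each group did not overlap in CPM for 8 of the 9 genes, all but H2-D1, and for 67.5% of all genes tested.

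Levels were compared between genes as TPM, which scales for transcript length. In TKO-2i the order was led by B2m (47.1 ± 1.55 TPM, SD, n = 3), Tapbp (34.3 ± 2.80), H2-K1 (24.0 ± 2.24) and H2-D1 (19.1 ± 1.34), and no neighbours among these overlapped. In TKO-serum H2-K1 (44.5 ± 2.33 TPM) and B2m (44.3 ± 2.15) led and overlapped each other, and so did H2-D1 (22.9 ± 1.03) and Tapbp (21.6 ± 0.746). H2-K1 thus lay above Tapbp in every TKO-serum library and below it, though still above H2-D1, in every TKO-2i library. The place of B2m depended on the length used, as its deposited effective length was about 0.5 of the annotated one. Per kilobase of annotated length, an alternative chosen after seeing the data, B2m stood at 90.9%, 95.8% and 102% of H2-K1 in TKO-2i and at 47.7%, 52.6% and 47.2% in TKO-serum. Tapbp then led in TKO-2i, at 119%, 131% and 142% of H2-K1, and H2-K1 led alone in TKO-serum. The other 5 genes lay far below these 4 in both media. They ran in TKO-2i from Tap1 (1.32 ± 0.276 TPM) and Psmb9 (1.29 ± 0.315), through Tap2 (0.750 ± 0.443), these 3 overlapping, and Psmb8 (0.185 ± 0.0394) to Nlrc5 (0.0339 ± 0.0277). In TKO-serum they ran from Tap1 (3.29 ± 0.0819 TPM) through Psmb9 (2.29 ± 0.741), Psmb8 (1.48 ± 0.334) and Tap2 (1.07 ± 0.0483) to Nlrc5 (0.575 ± 0.374), and Psmb8 and Tap2 overlapped.

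**Figure D1:**
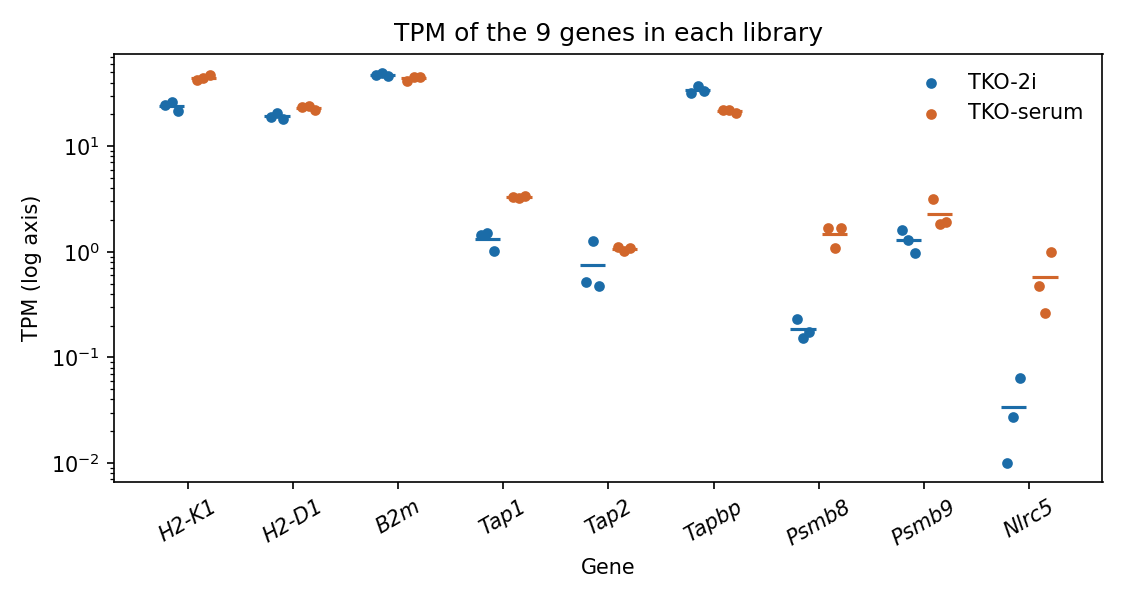
Each point is 1 library and each short line the mean of 3 libraries. The vertical axis is TPM on a log scale, for the 9 genes named below it. H2-K1, H2-D1, B2m and Tapbp lie above 17 TPM in all 6 libraries, the other 5 genes lie below 4 TPM, and the TKO-2i points of Psmb8 and Nlrc5 lie below all of their TKO-serum points.

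The heavy chains came first. H2-K1 (ENSMUSG00000061232, minus strand of chr17:33996017-34000347 in GRCm38) encodes the classical heavy chain H-2K, which holds the peptide. It measured 33.5, 29.6 and 28.8 CPM in the TKO-2i libraries against 52.4, 48.3 and 55.2 CPM in the TKO-serum libraries, each in the order of replicates 1 to 3. Every TKO-2i library thus lay below every TKO-serum library. The log2 fold change was -0.76 (SE 0.08, adjusted p = 4e-05 in edgeR), which is 1.69-fold higher in serum.

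H2-D1 (ENSMUSG00000073411, plus strand of chr17:35262730-35267499) encodes the other classical heavy chain, H-2D. It measured 28.7, 24.2 and 26.4 CPM in TKO-2i against 30.4, 27.2 and 28.0 CPM in TKO-serum. The groups overlapped, through TKO-2i replicate 1, and the log2 fold change of -0.11 (SE 0.08) did not pass the test (adjusted p = 0.23 in edgeR). On the TPM scale the groups did not overlap, at 18.7, 20.6 and 18.0 TPM in TKO-2i against 23.2, 23.8 and 21.8 TPM in TKO-serum, and limma on log2(TPM + 1) called it lower (log2 fold change -0.25, adjusted p = 0.022). Whether H2-D1 was called lower therefore depended on the unit. The difference between the changes of H2-K1 and H2-D1 was not tested.

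Heavy-chain genes are near copies of each other and share reads, so the division of reads between H2-K1, H2-D1 and the H2-Q and H2-T genes is uncertain. Their sum is less so, and it was fitted as 1 feature made of 17 annotated genes. The sum held 3568, 3087 and 3050 estimated counts in TKO-2i (79.6, 70.2 and 71.5 CPM) and 4001, 5101 and 4866 in TKO-serum (104, 95.9 and 106 CPM). Every TKO-2i library again lay below every TKO-serum library, with a log2 fold change of -0.46 (SE 0.07, adjusted p = 0.00042 in edgeR). H2-K1 held 42.1%, 42.2% and 40.3% of the summed counts in TKO-2i and 50.5%, 50.3% and 52.1% in TKO-serum. H2-K1 and H2-D1 together held 78.1%, 76.7% and 77.1% in TKO-2i and 79.8%, 78.7% and 78.6% in TKO-serum. The share of H2-K1 within the heavy chains was thus smaller in every TKO-2i library, while the share of both classical genes together differed little.

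The light chain went the other way. B2m (ENSMUSG00000060802, plus strand of chr2:122147686-122153083) encodes β2-microglobulin, without which heavy chains do not reach the surface stably. It measured 16.73, 15.51 and 16.13 CPM in TKO-2i against 13.82, 13.98 and 14.34 CPM in TKO-serum. The groups did not overlap, but the log2 fold change was only 0.20 (SE 0.06, adjusted p = 0.021 in edgeR). The call was not firm. It was lost without TKO-2i replicate 1 (log2 fold change 0.16, adjusted p = 0.095 in edgeR), TKO-2i replicate 3 (0.20, adjusted p = 0.072), TKO-serum replicate 1 (0.19, adjusted p = 0.073) or TKO-serum replicate 2 (0.20, adjusted p = 0.061). B2m lies within the span of Patl2 on the opposite strand, which had 24.1 CPM in TKO-2i against 19.3 CPM in TKO-serum (log2 fold change 0.32). Whether the quantification used strand is not given in the sources used here, so reads of the pair may not have been told apart.

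The ratio of light to heavy chain transcripts was taken in each library as the TPM of B2m over the summed TPM of H2-K1 and H2-D1. It was 1.08, 1.05 and 1.16 in TKO-2i and 0.635, 0.675 and 0.659 in TKO-serum. B2m transcripts thus outnumbered those of both heavy chains in every TKO-2i library and fell short of them in every TKO-serum library. The mean log2 ratio differed by 0.74, with p = 0.1 in a two-sided exact permutation test, the smallest p that 3 against 3 libraries can give. Where the ratio stood against 1 depended on the length used. The deposited effective length of the single B2m transcript was between 420 and 432 bases although it is annotated with 860, and with annotated lengths, an alternative chosen after seeing the data, the ratio was 0.535, 0.561 and 0.579 in TKO-2i and 0.320, 0.354 and 0.331 in TKO-serum. The difference between media was then 0.74 on the log2 scale as well.

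The transporter subunits were both lower in 2i. Tap1 (ENSMUSG00000037321, plus strand of chr17:34187553-34197225) and Tap2 (ENSMUSG00000024339, plus strand of chr17:34203527-34216321) encode the subunits of the peptide pump. Tap1 measured 3.48, 2.82 and 2.35 CPM in TKO-2i against 6.56, 5.51 and 6.07 CPM in TKO-serum. Every TKO-2i library lay below every TKO-serum library, with a log2 fold change of -1.06 (SE 0.15, adjusted p = 0.0003 in edgeR). The make-up of the Tap1 signal differed as well. Protein-coding transcripts held 89.9%, 93.9% and 86.4% of its TPM in TKO-2i and 69.6%, 70.3% and 64.3% in TKO-serum, and transcripts annotated as retained introns held the rest. These shares are descriptions, rest on 380 estimated counts over the TKO-2i libraries and 825 over the TKO-serum libraries, and were given no test.

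Tap2 measured 1.27, 1.36 and 1.13 CPM in TKO-2i against 2.39, 2.07 and 2.35 CPM in TKO-serum. The groups did not overlap, and the log2 fold change was -0.85 (SE 0.14, adjusted p = 0.00093 in edgeR). On the TPM scale they did, since TKO-2i replicate 2 stood at 1.26 TPM beside 0.512 and 0.476 TPM in the other TKO-2i libraries and 1.11, 1.01 and 1.08 TPM in TKO-serum. In that library a transcript of 344 bases, Tap2-205, held 51.1% of the TPM of the gene from 3.90 estimated counts. Limma on log2(TPM + 1) did not call Tap2 (log2 fold change -0.27, adjusted p = 0.19). Most Tap2 counts (67.9%) were assigned to Tap2-202, annotated as a retained intron.

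Tapbp rose. It encodes tapasin (ENSMUSG00000024308, plus strand of chr17:33915899-33929292), which bridges TAP and the heavy chain in the loading complex. It measured 60.2, 58.1 and 62.8 CPM in TKO-2i against 32.5, 32.3 and 31.6 CPM in TKO-serum. The libraries within each group lay close together and the groups far apart, with a log2 fold change of 0.91 (SE 0.05, adjusted p = 1.3e-06 in edgeR), or 1.88-fold. The annotated span of Tapbp overlaps that of Zbtb22 on the same strand by 3422 bases, and Zbtb22 had 27.4 CPM in TKO-2i against 26.6 CPM in TKO-serum. The transcript Tapbp-201 held 93.7% of the Tapbp counts.

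The immunoproteasome subunits were lower in 2i. Psmb8 (ENSMUSG00000024338, plus strand of chr17:34197721-34201454) encodes β5i, which takes the place of the β5 subunit Psmb5 in the catalytic core under interferon. It held 14, 8 and 10 estimated counts in TKO-2i and 55, 68 and 64 in TKO-serum. In CPM these were 0.312, 0.182 and 0.235 against 1.43, 1.28 and 1.39, so that the gene was low in both media and lower in every TKO-2i library. The log2 fold change was -2.47 (SE 0.23, adjusted p = 2.7e-05 in edgeR), which is 5.55-fold higher in serum. By limma on log2(TPM + 1), where the added 1 shrinks the change of so low a gene, it was -1.06 (adjusted p = 0.00012).

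Psmb9 (ENSMUSG00000096727, minus strand of chr17:34181987-34187764) encodes β1i, the inducible counterpart of the β1 subunit Psmb6. It measured 1.54, 1.09 and 0.938 CPM in TKO-2i against 2.28, 1.69 and 1.85 CPM in TKO-serum. The groups did not overlap, with a log2 fold change of -0.69 (SE 0.21, adjusted p = 0.021 in edgeR). The call was lost without TKO-2i replicate 3 (-0.55, adjusted p = 0.073 in edgeR) or TKO-serum replicate 1 (-0.57, adjusted p = 0.077). Psmb9 and Tap1 lie head to head on opposite strands and overlap by 212 bases.

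The inducible partners outside the 9 genes did not all follow. Of Psmb10, Psme1 and Psme2, 1 was lower and 2 were higher, beside 30.6% lower and 31.9% higher among all genes tested. Psmb10, which encodes β2i, measured 16.6, 12.0 and 16.9 CPM in TKO-2i against 26.3, 21.6 and 23.8 CPM in TKO-serum (log2 fold change -0.66, SE 0.13, adjusted p = 0.0026 in edgeR). Psme1 and Psme2 encode the subunits of the PA28 activator, which caps the proteasome. Their log2 fold changes were 0.76 (SE 0.09, adjusted p = 0.00014 in edgeR) and 0.59 (SE 0.08, adjusted p = 0.00024). All 3 inducible catalytic subunits were thus called lower in 2i, though the Psmb9 call was not firm, and both activator subunits higher. Only between 15.2% and 22.7% of Psmb10 counts were on protein-coding transcripts.

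The constitutive proteasome moved little, with log2 fold changes between -0.14 and 0.42 in edgeR. Of all genes tested, 31.9% were higher and 30.6% lower in TKO-2i. Of the 17 listed proteasome genes, 5 were higher, none lower and 12 not called by edgeR (median log2 fold change 0.04). At an unadjusted p under 0.05 edgeR also had 0 lower, and DESeq2 called 0 lower. By limma on log2(TPM + 1), 4 were called lower, beside 5839 lower and 4209 higher among all 18177 genes. Psmb6, the most abundant by TPM and the β1 subunit, had a log2 fold change of 0.35 (SE 0.12, adjusted p = 0.028 in edgeR), and this call was lost without TKO-2i replicate 1 (0.25, adjusted p = 0.1), TKO-2i replicate 3 (0.31, adjusted p = 0.1), TKO-serum replicate 2 (0.28, adjusted p = 0.1) or TKO-serum replicate 3 (0.33, adjusted p = 0.089). Psmb3 (0.42, SE 0.11), Psma1 (0.39, SE 0.07) and Psme3 (0.32, SE 0.05) were also higher in 2i, and encode 2 core subunits and the nuclear activator PA28γ.

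Each inducible subunit was then set against the constitutive subunit that it replaces, as a percentage of TPM in each library. Psmb8 stood at 0.104%, 0.0833% and 0.0872% of Psmb5 in TKO-2i and at 0.759%, 0.494% and 0.773% in TKO-serum. Psmb9 stood at 0.240%, 0.220% and 0.153% of Psmb6 in TKO-2i and at 0.556%, 0.351% and 0.357% in TKO-serum. Psmb10 stood at 16.3%, 14.7% and 17.3% of Psmb7 in TKO-2i and at 23.7%, 21.5% and 23.5% in TKO-serum, but over protein-coding transcripts only at 0.840%, 1.02% and 1.18% against 2.02%, 1.55% and 1.63%. For all 3 pairs every TKO-2i library lay below every TKO-serum library. The mean log2 ratios differed by -2.86, -1.04 and -0.51, each with p = 0.1 in a two-sided exact permutation test, the smallest p possible here. The transcripts of Psmb8 and Psmb9 were thus under 1% of their constitutive counterparts in both media.

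Nlrc5 fell the most of the 9 genes in the main edgeR fit. It encodes the transactivator that acts on class I promoters (ENSMUSG00000074151, plus strand of chr8:94434356-94527272). It held 2, 7 and 6 estimated counts in TKO-2i and 65, 68 and 62 in TKO-serum. In CPM these were 0.0446, 0.159 and 0.141 against 1.69, 1.28 and 1.35, so that all 3 TKO-2i libraries were close to the lowest level that could be read. That level, taken as 3 counts, lay between 0.0564 and 0.0778 CPM, covers counting error only, and was above the value of TKO-2i replicate 1. The log2 fold change was -3.61 (SE 0.33, adjusted p = 2.7e-05 in edgeR), or 12.2-fold higher in serum, a size that is uncertain at so few counts. It was -2.21 by limma on log2(TPM + 0.1) (adjusted p = 0.0021) and -0.58 on log2(TPM + 1) (adjusted p = 0.013). By limma Psmb8 fell more than Nlrc5 on both scales (-2.45 and -1.06). On log2(TPM + 1) so did Tap1 (-0.89) and H2-K1 (-0.87), so the rank of Nlrc5 depended on the scale. The TPM of Nlrc5 varied among the TKO-serum libraries (0.475, 0.261 and 0.990) more than the counts did. In replicate 3 transcript Nlrc5-209 of 346 bases held 68.9% of the TPM from 4.53 counts, and in replicate 1 Nlrc5-202 and Nlrc5-206 held 27.4% and 25.2% from 6.06 and 2.34 counts. In RNA from whole cultures, fewer cells with a transcript and less of it per cell cannot be told apart.

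Of 15 other regulators of class I promoters, 7 were higher in TKO-2i, 4 lower and 4 not called (median log2 fold change 0.18), beside 31.9% higher and 30.6% lower among all genes tested. Rfx5, the DNA-binding subunit of the RFX complex, was higher (0.83, SE 0.08, adjusted p = 2.9e-05 in edgeR). So were Irf9 (0.95, SE 0.05, adjusted p = 1.6e-06) and Stat2 (0.65, SE 0.05, adjusted p = 9.2e-06), subunits of the factor that answers type I interferon. Irf2, an interferon regulatory factor, was higher at under 1 CPM in every library (1.03, SE 0.33, adjusted p = 0.025 in edgeR), and lost its call in DESeq2 (adjusted p = 0.07) and without TKO-2i replicate 2 (0.69, adjusted p = 0.086), TKO-serum replicate 2 (1.12, adjusted p = 0.054) or TKO-serum replicate 3 (0.88, adjusted p = 0.091). Limma did not call Irf2 on log2(TPM + 0.1) (1.03, adjusted p = 0.059) or log2(TPM + 1) (0.36, adjusted p = 0.1). Atf1, the most abundant factor by TPM, measured 85.9, 88.0 and 88.5 CPM in TKO-2i against 91.2, 88.4 and 86.2 CPM in TKO-serum and was not called.

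Of 9 receptors, kinases and inhibitors of interferon signalling, 4 were higher in TKO-2i, 2 lower and 3 not called (median log2 fold change 0.11), again beside 31.9% and 30.6% among all genes tested. Tyk2 (0.46, SE 0.05) and Jak1 (0.43, SE 0.06), kinases bound to the receptors, and Ifngr1 (0.44, SE 0.11), the ligand-binding chain for interferon gamma, were higher. The Ifngr1 call was lost by limma on log2(TPM + 1) (0.26, adjusted p = 0.081) and on log2(TPM + 0.1) (0.35, adjusted p = 0.091). Socs3, a feedback inhibitor of JAK signalling and the most abundant by TPM, was lower (-0.32, SE 0.10, adjusted p = 0.019 in edgeR), a call lost without TKO-serum replicate 1 (-0.29, adjusted p = 0.063) or replicate 3 (-0.30, adjusted p = 0.068). None of these changes reached 2-fold.

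In the endoplasmic reticulum, 10 genes of peptide trimming and loading had a median log2 fold change of 0.30. Of these 5 were higher in TKO-2i, 2 lower and 3 not called, beside 31.9% higher and 30.6% lower among all genes tested. Calr, the chaperone calreticulin and the most abundant by TPM, measured 776, 735 and 754 CPM in TKO-2i against 840, 840 and 793 CPM in TKO-serum. Its log2 fold change of -0.13 (SE 0.05, adjusted p = 0.043 in edgeR) was small, and the call was lost in DESeq2 (adjusted p = 0.078) and in 5 of the 6 fits that each left out 1 library. These were without TKO-2i replicate 2 (-0.10, adjusted p = 0.057), TKO-2i replicate 3 (-0.13, adjusted p = 0.15), TKO-serum replicate 1 (-0.11, adjusted p = 0.16), TKO-serum replicate 2 (-0.11, adjusted p = 0.15) and TKO-serum replicate 3 (-0.15, adjusted p = 0.056). Tapbpl, which encodes the tapasin-related editor TAPBPR, was higher (0.68, SE 0.10, adjusted p = 0.00054 in edgeR), as was Uggt1, a glucosyltransferase that returns unloaded chains to the chaperones (0.43, SE 0.06, adjusted p = 0.00041). Of the Uggt1 counts 66.4% lay on Uggt1-209, annotated as subject to nonsense-mediated decay. Erap1, the aminopeptidase that trims peptides to class I length, was lower (-0.58, SE 0.14, adjusted p = 0.0067 in edgeR). Abcb9, a transporter related to TAP, was higher at under 1 CPM (0.71, SE 0.23, adjusted p = 0.026 in edgeR), a call lost in DESeq2 (adjusted p = 0.13) and without TKO-2i replicate 2 (0.54, adjusted p = 0.1) or TKO-serum replicate 1 (0.67, adjusted p = 0.077), 2 (0.75, adjusted p = 0.065) or 3 (0.73, adjusted p = 0.068). It was also lost with length-scaled counts (0.66, adjusted p = 0.08) and without a filter (0.70, adjusted p = 0.051). Limma did not call Abcb9 on log2(TPM + 0.1) (0.38, adjusted p = 0.2) or log2(TPM + 1) (0.12, adjusted p = 0.2).

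Of 30 class I and class I-like genes outside the classical pair, 29 were matched by name and 15 tested. Of these 6 were higher in TKO-2i, 6 lower and 3 not called (median log2 fold change -0.13), where 31.9% of all genes tested were higher and 30.6% lower. Another 4 had no count in any library. H2-M5, the most abundant by TPM, measured 59.2, 54.0 and 53.7 CPM in TKO-2i against 35.6, 33.9 and 35.7 CPM in TKO-serum (0.67, SE 0.06, adjusted p = 1.6e-05 in edgeR). Its signal was mostly not that of a coding transcript, since 86.6% of its counts lay on H2-M5-202, annotated as a retained intron. H2-Bl was higher (1.58, SE 0.14, adjusted p = 2.4e-05 in edgeR), with at most 7.85% of its counts on protein-coding transcripts. Fcgrt, the heavy chain of the neonatal Fc receptor, which binds antibodies and also pairs with β2-microglobulin, was higher (1.25, SE 0.09, adjusted p = 7.7e-06 in edgeR). H2-M3, which presents formylated peptides, was lower (-1.23, SE 0.23, adjusted p = 0.0015 in edgeR). H2-Q6 was lower on 17 counts in TKO-2i and 50 in TKO-serum (-1.46, SE 0.46, adjusted p = 0.023 in edgeR), and lost its call in DESeq2 (adjusted p = 0.066) and without TKO-2i replicate 1 (-1.27, adjusted p = 0.067), TKO-2i replicate 2 (-1.16, adjusted p = 0.055) or TKO-serum replicate 3 (-1.21, adjusted p = 0.096). Read outside the naming rule, H2-Q4 (-1.11, adjusted p = 2.1e-05 in edgeR), H2-Q7 (-1.16, adjusted p = 8.8e-05) and H2-Q10 (-0.61, adjusted p = 0.0036) were lower too, on more counts. Transcripts annotated as retained introns held 69.7% of H2-Q7 and 55.1% of H2-Q10 counts. H2-Q2 was not called (-0.13, adjusted p = 0.79 in edgeR) and H2-Q1 was not tested.

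The class II pathway presents peptides from outside the cell. Of 11 listed genes 8 were tested, with a median log2 fold change of 0.43. Of these 4 were higher in TKO-2i, 1 lower and 3 not called, where 31.9% of all genes tested were higher and 30.6% lower. H2-Eb1, the most abundant by TPM and a class II β chain, measured 18.6, 15.1 and 17.6 CPM in TKO-2i against 6.61, 4.74 and 5.90 CPM in TKO-serum (1.58, SE 0.13, adjusted p = 1.4e-05 in edgeR). H2-Ab1, another β chain, was higher as well (0.99, SE 0.15, adjusted p = 0.0005 in edgeR). Cd74, the invariant chain that guards the class II groove, was lower, at 1.41, 1.14 and 1.24 CPM in TKO-2i against 4.20, 3.59 and 4.37 CPM in TKO-serum (-1.68, SE 0.14, adjusted p = 1.5e-05 in edgeR). Ciita, the class II counterpart of Nlrc5, was at most 2.00 CPM in any library and slightly higher (0.55, SE 0.17, adjusted p = 0.02 in edgeR), a call lost in DESeq2 (adjusted p = 0.065) and without TKO-2i replicate 2 (0.47, adjusted p = 0.052), TKO-2i replicate 3 (0.51, adjusted p = 0.057) or TKO-serum replicate 1 (0.46, adjusted p = 0.07). With length-scaled counts it was 0.27 (adjusted p = 0.25) and by limma on log2(TPM + 1) 0.04 (adjusted p = 0.54), and its groups overlapped in TPM, so that the difference of Ciita between the media was not firm.

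Ligands of NKG2D, the activating receptor of natural killer cells, were listed because those cells also read class I. Of 9 listed genes 5 were matched by name and 4 tested (median log2 fold change -0.89). Of the 4, 2 were lower in TKO-2i, 1 higher and 1 not called, beside 30.6% lower and 31.9% higher among all genes tested. Raet1d measured 1.14, 1.11 and 1.01 CPM in TKO-2i against 2.75, 3.38 and 3.37 CPM in TKO-serum (-1.54, SE 0.14, adjusted p = 2.8e-05 in edgeR). Raet1e was lower too (-1.44, SE 0.16, adjusted p = 7.9e-05 in edgeR). Ulbp1, the most abundant by TPM, was higher (0.65, SE 0.10, adjusted p = 0.00042 in edgeR), a call that limma on log2(TPM + 1) did not make (adjusted p = 0.053).

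Of the 9 genes, 7 lie on chromosome 17 in the MHC, and the neighbouring genes were therefore read over the 1351601 bases from the start of Tapbp to the end of H2-D1 (chr17:33915899-35267499). Of 78 protein-coding genes there that are in no list, 62 were tested, 26 were higher in TKO-2i (41.9%), 7 lower (11.3%) and 29 not called (median log2 fold change 0.08). Of all genes tested 31.9% were higher and 30.6% lower. Limma on log2(TPM + 1) gave 16 higher and 13 lower, but it also shifted the calls over all 18177 genes, to 4209 higher and 5839 lower. Sapcd1 measured 4.06, 2.75 and 3.85 CPM in TKO-2i against 1.19, 0.959 and 0.892 CPM in TKO-serum (1.82, SE 0.20, adjusted p = 6.4e-05 in edgeR). Msh5, a meiotic recombination gene, was higher (1.31, SE 0.17, adjusted p = 0.00017 in edgeR), and Ly6g6c, of the Ly6 family, was lower (-1.24, SE 0.17, adjusted p = 0.00029). Tap1, Tap2, Psmb8 and Psmb9, which lie side by side, were all lower, and the log2 fold changes in this cluster ranged from -2.47 to -0.69.

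**Figure D2:**
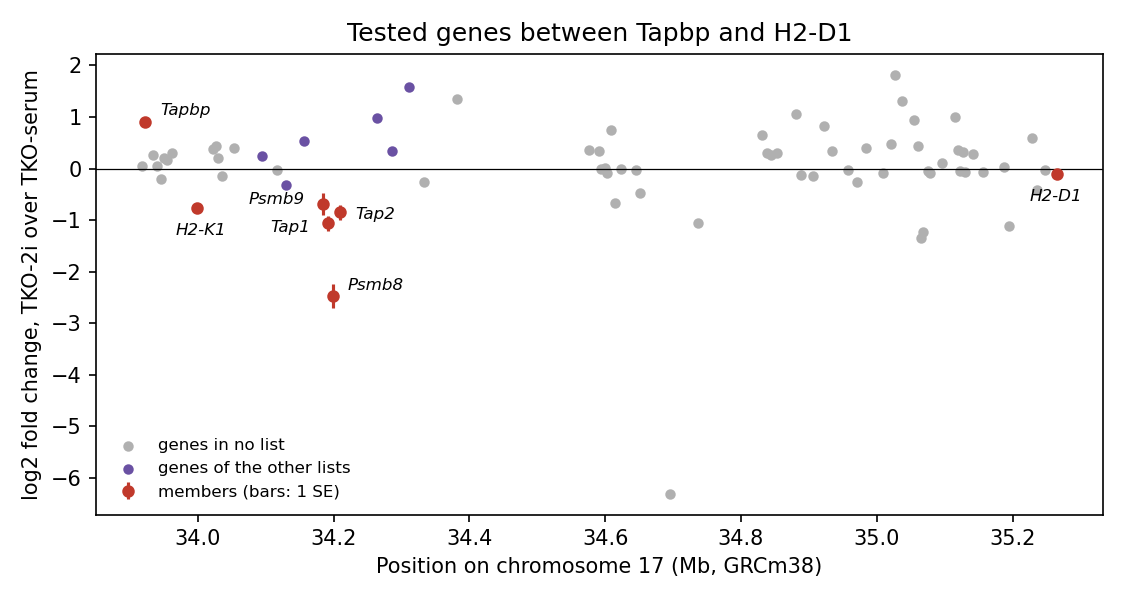
Each point is 1 tested gene, placed by the middle of its span on chromosome 17 (horizontal axis, Mb in GRCm38) and its log2 fold change, TKO-2i over TKO-serum (vertical axis). Red points are members with bars of 1 SE, purple points genes of the other lists and grey points genes in no list. Tapbp lies at 0.91, H2-D1 near 0 and the cluster of Tap1, Tap2, Psmb8 and Psmb9 below 0. The lowest grey point is Tnxb, named after its values were seen, with 1 count in TKO-2i and 112 in TKO-serum.

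Promoter sequences from RefSeq (GRCm38.p6, 250 bases before to 50 after the gene start) were matched by symbol for 7 of the 9 genes, and Tap2 and Nlrc5 had no entry. Each was searched on both strands for 4 patterns. An ISRE-type pattern, GAAANNGAAA, is bound by IRF factors. A κB-type pattern, GGGNNTTNCC, is bound by NF-κB, and CCAAT by NF-Y. The X2-Y-type pattern is TGACG followed 5 to 40 bases later by ATTGG, the letters that CREB-family factors and NF-Y read in class I promoters, and its last 5 bases are a CCAAT on the other strand. Of 32851 promoters in the table, 3.44% held the ISRE-type, 4.79% the κB-type, 37.4% the CCAAT and 1.06% the X2-Y-type pattern. A match is a description of the letters and not a site of binding. Only exact matches were counted, so a promoter without a match can still hold a related site with other letters.

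H2-K1, H2-D1 and B2m each held the κB-type and the X2-Y-type pattern, and B2m alone of the 7 held an exact ISRE-type match. Whether H2-K1 and H2-D1 hold an interferon site with other letters was not tested. Tap1, Tapbp and Psmb9 held CCAAT only, and Psmb8 held none of the 4 patterns. The promoters of H2-K1 and H2-D1 are also much alike, with 211 identical bases of 239 aligned (88.3%). The sequences of these 3 genes are shown because all 3 hold the κB-type and X2-Y-type patterns. Capitals mark the patterns, with both ends of the X2-Y-type pattern. H2-K1 has 2 entries with starts 14 bases apart, and the first is printed (minus strand, chr17:34000298-34000597). H2-D1 is at chr17:35262844-35263143 and B2m at chr2:122147437-122147736, both on the plus strand.
H2-K1: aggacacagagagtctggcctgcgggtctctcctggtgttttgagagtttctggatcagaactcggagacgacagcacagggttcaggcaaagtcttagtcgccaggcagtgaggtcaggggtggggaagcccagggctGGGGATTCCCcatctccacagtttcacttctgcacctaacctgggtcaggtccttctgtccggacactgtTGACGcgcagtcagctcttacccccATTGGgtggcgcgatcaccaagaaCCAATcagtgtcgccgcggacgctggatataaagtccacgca
H2-D1: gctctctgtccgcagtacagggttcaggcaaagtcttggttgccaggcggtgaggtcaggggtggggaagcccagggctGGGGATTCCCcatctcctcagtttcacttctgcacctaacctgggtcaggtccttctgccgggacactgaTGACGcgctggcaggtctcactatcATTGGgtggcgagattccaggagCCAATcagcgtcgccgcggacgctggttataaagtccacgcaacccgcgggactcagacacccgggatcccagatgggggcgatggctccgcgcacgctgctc
B2m: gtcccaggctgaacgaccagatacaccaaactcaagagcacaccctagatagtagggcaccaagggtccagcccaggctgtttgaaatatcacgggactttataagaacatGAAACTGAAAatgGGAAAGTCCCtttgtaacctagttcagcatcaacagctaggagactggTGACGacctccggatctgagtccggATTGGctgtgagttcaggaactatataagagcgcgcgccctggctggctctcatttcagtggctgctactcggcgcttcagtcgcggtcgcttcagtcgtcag

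Tap1 and Psmb9, both lower in 2i, share a promoter between them, since 275 bases of their 300-base windows are the same stretch read from opposite strands. It is shown because these neighbours were called in the same direction. The Tap1 window is on the plus strand at chr17:34187306-34187605, with its CCAAT in capitals. The CCAAT match of the Psmb9 window is this same site read from the other strand.
Tap1: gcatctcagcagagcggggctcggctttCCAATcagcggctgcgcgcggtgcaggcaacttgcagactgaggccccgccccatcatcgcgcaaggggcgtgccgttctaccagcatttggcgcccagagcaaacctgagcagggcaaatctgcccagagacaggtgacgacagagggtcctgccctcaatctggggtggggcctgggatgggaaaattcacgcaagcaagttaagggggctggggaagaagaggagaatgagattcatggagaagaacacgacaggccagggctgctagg

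Genes with a profile most like those of H2-K1 and B2m were taken from 12769 protein-coding genes in no list, by Pearson's r of log2 CPM over the 6 libraries, as a description. Closest to H2-K1 were Tmem184a (r = 0.999), Plek2 (r = 0.999) and Inppl1 (r = 0.999). Tmem184a measured 1.65, 1.34 and 1.31 CPM in TKO-2i against 3.63, 3.03 and 3.94 CPM in TKO-serum. Closest to B2m were Hgs (r = 1.00), Gpr108 (r = 0.999) and Cyp2s1 (r = 0.999). Since the 6 libraries form 2 groups, a gene that separates the groups in the same direction can have a high r for that alone. An r above 0.98 was reached by 461 genes for H2-K1 and 169 for B2m.

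Markers of the cells that such cultures can hold were read last. Pluripotency markers were present in every library, at a summed 2804, 2804 and 2656 TPM in TKO-2i and 3199, 3287 and 3241 TPM in TKO-serum for 8 genes. Of these 3 were higher, 3 lower and 2 not called, beside 31.9% higher and 30.6% lower among all genes tested. Pou5f1, the most abundant, was not called (log2 fold change -0.18, adjusted p = 0.093 in edgeR) and its groups overlapped in CPM. It was called lower without TKO-2i replicate 1 (-0.26, adjusted p = 0.027 in edgeR), with at least 10 counts in every library (-0.22, adjusted p = 0.049), with length-scaled counts (-0.20, adjusted p = 0.04), with the replicate block (-0.19, adjusted p = 0.007) and by limma on log2(TPM + 1) (-0.30, adjusted p = 0.0009) and on log2(TPM + 0.1) (-0.30, adjusted p = 0.00078), and its groups did not overlap in TPM. Klf4 (0.80, SE 0.05) and Nanog (0.60, SE 0.06) were higher, and Utf1 (-1.33, SE 0.08) and Sox2 (-0.41, SE 0.05) lower. The cells thus expressed the markers of their label in both media.

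Markers of blood and immune cells, which carry much class I, summed to 25.9, 34.8 and 31.3 TPM in TKO-2i and 22.2, 25.1 and 26.7 TPM in TKO-serum over 7 genes. Cd68, a lysosomal protein of macrophages that other cells also express, was the most abundant and higher in TKO-2i (0.52, SE 0.08, adjusted p = 0.00039 in edgeR). The defining markers Ptprc and Lyz2 were at or near the lowest readable level in every library, with 10 and 3 counts summed over TKO-2i and 9 and 1 over TKO-serum. Itgam, an integrin of myeloid cells, was lower (-0.99, SE 0.15), and so was Csf1r, a receptor of macrophages, which had 2 counts in TKO-2i and 42 in TKO-serum.

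Markers of fibroblasts and feeders summed to 6.52, 7.33 and 6.41 TPM in TKO-2i and 7.80, 8.67 and 7.95 TPM in TKO-serum over 9 genes, with Thy1 the most abundant. Of 5 tested, 3 were lower (Thy1 -0.42, SE 0.09, Col1a2 -1.55, SE 0.25, and Fbn1 -1.55, SE 0.09) and 1 higher (Pdgfrb 1.62, SE 0.14). Among all genes tested 30.6% were lower and 31.9% higher. Col3a1, Postn and Lum had at most 10 counts in either group, and Dcn had 1 count in TKO-2i and 33 in TKO-serum. Col1a1 was not called, with 457 counts in TKO-2i and 495 in TKO-serum, and Fbn1 had 511 and 1575. Some stromal markers were thus near the lowest readable level while others were clearly present.

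Markers of differentiating derivatives summed to 100, 97.6 and 104 TPM in TKO-2i and 135, 140 and 137 TPM in TKO-serum over 11 genes. Of these 6 were lower, 2 higher and 3 not called, where 30.6% of all genes tested were lower and 31.9% higher. Tubb3, the most abundant and neuronal in later life, was lower (-0.43, SE 0.09), as were Pax6 (-2.46, SE 0.13) and Cdh5, which had 4 counts in TKO-2i and 128 in TKO-serum. The mesodermal and caudal genes T (5.58, SE 0.32) and Cdx2 (4.28, SE 0.35) were higher. Markers of all 4 cell types thus included genes that differed between the media, and their part in the result was not tested.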

How the data were processed

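Estimated counts and TPM per transcript, with transcript lengths, were deposited by the authors for each library. The deposited estimated counts are not normalised, and the deposited TPM are scaled for effective length and to a fixed sum. The labels name the build mm10. The quantifier, its index and its use of strand are not given in the sources used here. Of 136288 transcripts 136100 matched GENCODE M21 (GRCm38), and values were summed per gene. Sums of counts were rounded and fitted with edgeR 4.0.16 in R 4.3.3 (filterByExpr, TMM, glmQLFit, glmQLFTest, medium as the only factor), with Benjamini-Hochberg adjustment over 18177 genes and a threshold of 0.05. The SE is the absolute log2 fold change over the square root of F. Tested on simulated data, unchanged genes made up more of the calls than the threshold allows, least in edgeR, more with the replicate block and most in DESeq2. Scripts used Python 3.11.15, pandas 2.3.3, numpy 2.4.6 and scipy 1.17.1.

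The 9 members and all lists were chosen with earlier results of these data known. Named genes were all members, from each list the most abundant by mean TPM and up to 4 called genes with the largest absolute log2 fold change, from the MHC interval up to 3 such genes with a mean of at least 1 CPM, and the 3 genes most like H2-K1 and B2m. Exceptions are stated.

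Alternatives were DESeq2 1.42.0, its size factors in edgeR, no filter, at least 10 counts in every library, length-scaled counts, limma 3.58.1 (log2 of TPM + 1 or + 0.1), a replicate block and leaving out each library. For ratios they were counts per kilobase of effective length, protein-coding transcripts only and, chosen after seeing the data, annotated length, which was also tried for the order of levels.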

Additional observations from a re-analysis of the deposited data

How the results depend on the processing

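The calls of H2-K1, Tap1, Tapbp, Psmb8, Nlrc5 and the heavy-chain sum were made with the same direction in every alternative that gave a value, but the log2 fold change ranged from -3.98 to -0.58 for Nlrc5 and from -2.90 to -1.06 for Psmb8, smallest by limma on log2(TPM + 1). With at least 10 counts in every library, Psmb8 and Nlrc5 were not tested. B2m was not called in DESeq2 (log2 fold change 0.20, adjusted p = 0.077), with at least 10 counts (0.16, adjusted p = 0.056), without a filter (0.18, adjusted p = 0.077) or by limma on log2(TPM + 0.1) and log2(TPM + 1) (0.091 and 0.089, adjusted p = 0.23), and ranged from 0.16 to 0.23 when each library was left out. In these 5 settings and without some libraries, 1 member was called higher, and the leave-one-out count ranged from 1 to 2. H2-D1 was called lower with length-scaled counts (-0.17, adjusted p = 0.04) and by limma (-0.26 and -0.25, adjusted p = 0.021 and 0.022), over a range of adjusted p from 0.021 to 0.57. Tap2 was not called with length-scaled counts (-0.46, adjusted p = 0.24) or by limma (-0.58 and -0.27, adjusted p = 0.17 and 0.19). Psmb9 was not called with length-scaled counts (-0.73, adjusted p = 0.061), and ranged from -0.94 to -0.55 when each library was left out. The cause was not tested.

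By limma on log2(TPM + 0.1) and log2(TPM + 1), 16 MHC neighbours were higher in both and 12 and 13 lower. The same settings gave 4 constitutive proteasome genes lower, 4 regulators higher, 2 interferon receptors and kinases higher and 0 NKG2D ligands higher, and the latter 2 class II genes lower. Over all 18177 genes these settings called 4214 and 4209 higher and 5829 and 5839 lower. The main edgeR fit called 5804 higher and 5557 lower, so fewer higher and more lower calls were general to the limma settings. Of the peptide trimming and loading genes 1 was lower in DESeq2, with its size factors or without a filter, and 1 to 2 in the leave-one-out fits, in which 0 to 3 interferon receptors and kinases and 1 to 2 class II genes were lower. Atf1 turned to 0.0053 without TKO-serum replicate 1 (adjusted p = 0.95) and ranged from -0.038 to 0.0053 in the leave-one-out fits. The log2 ratio of Psmb8 to Psmb5 differed by -2.51 per effective length and that of Psmb10 to Psmb7 by -0.78 over protein-coding transcripts only. The cause was not tested.

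When replicate number was a block, 6444 genes were higher and 6095 lower, the calls of all 9 members were the same (H2-K1 -0.76, adjusted p = 5.7e-06, and H2-D1 -0.11, adjusted p = 0.061), and 2 constitutive proteasome genes were lower. Deviations of same-numbered libraries correlated at 0.242, 0.329 and 0.014, and TKO-2i replicate 3 correlated more with TKO-serum replicate 1 (0.123) than with its own number, so the numbers were not taken as pairs.

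Depth limits Nlrc5, Psmb8, Psmb9 and Tap2 most, since they rest on 15, 32, 157 and 165 counts over the TKO-2i libraries. Reads shared by near-identical heavy chains and by overlapping genes were not separated again here. The labels do not say which sequencing pool held each library, so pools were not compared. RNA levels were measured, and neither protein nor surface class I.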
